A study of Mus musculus with 16 samples.

Results

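The RFP+ MHCIIhi population comprised medullary thymic epithelial cells (mTECs) that carried the Aire lineage label and still had high surface MHC class II, and it supplied 4 of the 16 libraries. All libraries were chosen by their sort labels, and RFP+ MHCIIhi was set against the mean of the other 3 populations, RFP- MHCIIhi, RFP- MHCIIlow and RFP+ MHCIIlow, with 4 libraries each. Every library came from 12 pooled thymi of C57BL6.Aire-CreERT2.Ai14 mice of both sexes, aged 5 to 6 weeks, given 2 mg tamoxifen and sorted 7 days after the pulse as DAPI-, CD45-, EPCAM+ cells. In these mice, tamoxifen lets a Cre recombinase made under Aire control switch on a red fluorescent reporter permanently. A labelled cell therefore expressed Aire around the pulse or descends from one that did. An unlabelled cell may never have expressed Aire, may have expressed it only before or after the pulse, or may have escaped labelling. All 4 groups share the genotype, the tamoxifen and the chase, and no untreated or Cre-negative group was analysed here.

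Medullary thymic epithelial cells display self-antigens to developing T cells, and Aire is the transcriptional regulator that opens many tissue-restricted genes in them. Aire-expressing cells are known for high MHC class II, the co-stimulatory ligands CD80 and CD86, and chemokines that draw T cells and dendritic cells into the medulla. Labelled cells with low MHC class II are known to include cells past the Aire stage, among them cornified and tuft-like cells.

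The libraries held 7.93 to 19.46 M counts, with 11.95 to 17.63 M in RFP+ MHCIIhi from 129500 to 164000 cells, against 19400 to 20500 cells in RFP+ MHCIIlow. Log expression correlated at 0.985 to 0.989 among the RFP+ MHCIIhi libraries and at 0.950 to 0.967 among those of RFP+ MHCIIlow, the least uniform group. Mitochondrial ribosomal RNA took 31.3% ± 1.43 of RFP+ MHCIIhi counts (SD, n = 4), 34.1% in RFP- MHCIIhi, 42.7% in RFP- MHCIIlow and 33.9% in RFP+ MHCIIlow. In bulk RNA, fewer cells of a type and less RNA per cell cannot be told apart.

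The sort labels were first checked against gate genes. Epcam, the epithelial adhesion molecule of the gate, stood at 525, 510, 483 and 561 CPM (read counts scaled to library size, with factors from trimmed means) in RFP+ MHCIIhi, between RFP- MHCIIhi (322 to 357) and RFP+ MHCIIlow (579 to 622) and overlapping with RFP- MHCIIlow (419 to 496). Ptprc, which encodes CD45, stood at 19.3 to 26.7 CPM in RFP+ MHCIIhi, below the 42.2 to 88.4 of RFP- MHCIIhi. It was thus low but not at 0 in cells gated as CD45-. All 10 genes of the MHC class II list, the gate marker, were higher than the mean of the other groups. Of these, 5 were called highest, beside 5.79% of all tested genes. The list median was 0.27 against RFP- MHCIIhi, which has the same MHCII gate. H2-Aa reached 4975 to 5772 CPM against 4569 to 4903 in RFP- MHCIIhi and 700 to 1695 in both MHCIIlow groups. Its difference from RFP- MHCIIhi was not called (0.19 ± 0.13 SE, log2, edgeR adjusted p = 0.252). The reporter transcript itself is not among the annotated genes and was not analysed here.

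Aire stood at 543, 622, 588 and 594 CPM in RFP+ MHCIIhi and at 950, 1041, 1007 and 916 CPM in RFP- MHCIIhi. RFP- MHCIIlow held 16.3 to 69.0 CPM and RFP+ MHCIIlow 13.9 to 68.0 CPM. Labelled MHCIIhi cells therefore lay between: every library was below every RFP- MHCIIhi library and above every MHCIIlow library. The log2 difference from RFP- MHCIIhi was -0.74 and missed the threshold (edgeR adjusted p = 0.0571), while that from the mean of the 3 groups was 2.25 ± 0.24 (SE; edgeR adjusted p = 2.4e-08). Fezf2, the other known regulator of tissue antigens in mTECs, ran from 527 to 584 CPM in RFP+ MHCIIhi and from 480 to 603 CPM in RFP- MHCIIhi, and these ranges overlap. It reached at most 230 CPM in RFP+ MHCIIlow and 174 CPM in RFP- MHCIIlow.

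Of 19617 genes tested, 5988 (30.5%) were higher in RFP+ MHCIIhi than the mean of the other 3 groups and 4871 (24.8%) were lower (edgeR quasi-likelihood test, adjusted over all tested genes). The median log2 difference of all tested genes was 0.007. The contrast with a mean does not show where a gene peaks: of the 5988 higher genes, 2891 had their highest mean in RFP+ MHCIIhi, 2189 in RFP- MHCIIhi, 821 in RFP+ MHCIIlow and 87 in RFP- MHCIIlow. A gene was therefore called highest, or lowest, only where RFP+ MHCIIhi also differed in the same direction from each of the 3 groups. By that rule 1136 genes (5.79%) were highest and 735 (3.75%) lowest in RFP+ MHCIIhi. With each of the 3 differences over 2-fold, 252 genes (1.28%) were highest and 53 (0.27%) lowest.

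The genes called highest took 11.5% to 12.1% of all reads in the RFP+ MHCIIhi libraries, which describes a set chosen on those values. They took 6.90% to 7.63% in RFP- MHCIIhi, 5.18% to 6.24% in RFP+ MHCIIlow and 3.78% to 4.41% in RFP- MHCIIlow. The runner-up group was RFP- MHCIIhi for 651 of them, RFP+ MHCIIlow for 430 and RFP- MHCIIlow for 55. For 988 of the 1136, all 4 RFP+ MHCIIhi libraries lay above all 12 others, and for 513 of the 735 lowest genes they lay below. Over all 19617 tested genes, they lay above in 1138 and below in 601. The median smallest log2 difference was 0.61 among the highest genes and -0.44 among the lowest.

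**Figure D1:**
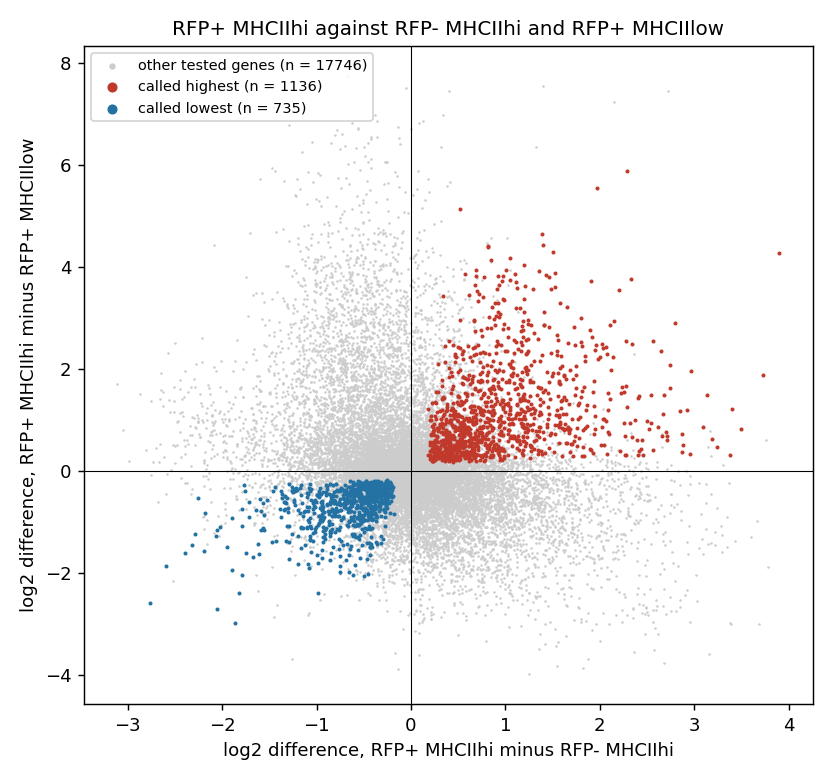
Each point is 1 tested gene, placed by its log2 difference of RFP+ MHCIIhi from RFP- MHCIIhi (horizontal) and from RFP+ MHCIIlow (vertical), both of which use the same RFP+ MHCIIhi libraries. The 1136 genes called highest lie at upper right and the 735 called lowest at lower left; genes at upper left had a higher level in RFP- MHCIIhi and genes at lower right in RFP+ MHCIIlow.

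Ccl22 and Cd86, the markers given for this population, were both called highest. Ccl22 (ENSMUSG00000031779, chromosome 8, 94745590 to 94751699, GRCm38) encodes the ligand of the chemokine receptor CCR4, which guides T cells and dendritic cells. It read 944, 947, 1036 and 1097 CPM in RFP+ MHCIIhi, against 187, 199, 190 and 222 CPM in RFP- MHCIIhi. RFP+ MHCIIlow held 57.9 to 84.0 CPM and RFP- MHCIIlow 10.9 to 31.2 CPM, so no library of another group came near. The fold was 5.04 over RFP- MHCIIhi, 13.6 over RFP+ MHCIIlow and 50.5 over RFP- MHCIIlow (log2 against the mean 3.92 ± 0.14 SE; edgeR adjusted p = 4.04e-16). Its neighbour Ccl17, another CCR4 ligand, read 40.5, 46.9, 51.0 and 61.8 CPM in RFP+ MHCIIhi and at most 25.6 CPM elsewhere.

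Cd86 (ENSMUSG00000022901, chromosome 16, 36603869 to 36666081) encodes a ligand of CD28 and CTLA-4 on T cells. RFP+ MHCIIhi libraries read 67.1, 58.6, 71.5 and 79.9 CPM, and RFP- MHCIIhi libraries 22.1, 20.1, 25.8 and 28 CPM. All RFP+ MHCIIlow values were at most 7.06 CPM and all RFP- MHCIIlow values at most 2.67 CPM. Cd86 was 2.89-fold over RFP- MHCIIhi and 14.8-fold over RFP+ MHCIIlow, with a log2 difference from the mean of 3.57 ± 0.15 (SE; edgeR adjusted p = 4.3e-15). Cd80, its partner ligand, was flat among RFP+ MHCIIhi libraries (93.1, 93.2, 95.2 and 92.1 CPM) and stood 1.54-fold above RFP- MHCIIhi (55.8 to 64.1 CPM).

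The 15 genes named by the rule as highest were led by Klk1b26 and Anxa10 by their smallest log2 difference from any group. They span secreted signals (Ccl22, Ccl5, Ebi3, Igf1), enzymes (Nos2, Soat2, Pck1), lipid and membrane proteins (Fabp9, Anxa10, Ly6i), glandular kallikreins (Klk1b26, Klk1b11), the homeobox gene Hoxc11, the muscle-associated Smtnl1 and the interferon-inducible Ifi205. Each had all 4 RFP+ MHCIIhi libraries above the other 12, which the rule requires.

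Among the secreted signals, Ccl5, a chemokine for T cells and monocytes, read 325, 310, 378 and 370 CPM in RFP+ MHCIIhi. It held 69.7 to 115 CPM in RFP- MHCIIhi, 7.56 to 36.7 in RFP+ MHCIIlow and 5.95 to 8.86 in RFP- MHCIIlow. Igf1, an insulin-like growth factor, read 362, 377, 394 and 385 CPM in RFP+ MHCIIhi and at most 111 CPM in any other library (3.79-fold over RFP- MHCIIhi and 6.15-fold over RFP+ MHCIIlow). Ccl5 was 3.74-fold over RFP- MHCIIhi, close to the fold of Igf1, but 13.2-fold over RFP+ MHCIIlow. The receptor gene Igf1r ran the other way, with means of 26.2 CPM in RFP+ MHCIIhi, 40.7 in RFP- MHCIIhi, 78.0 in RFP- MHCIIlow and 40.4 in RFP+ MHCIIlow (called lowest).

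Ebi3 (ENSMUSG00000003206, chromosome 17, 55952640 to 55957022) encodes the subunit shared by the cytokines IL-27 and IL-35. Its 4 RFP+ MHCIIhi values were 56.5, 54.9, 59.6 and 57.9 CPM. RFP- MHCIIhi held 7.38 to 10.1 CPM, RFP+ MHCIIlow 12.3 to 14.6 and RFP- MHCIIlow 1.38 to 3.18. Its level in RFP+ MHCIIhi was 6.69-fold that of RFP- MHCIIhi and 4.21-fold that of RFP+ MHCIIlow (log2 against the mean 3.17 ± 0.10 SE; edgeR adjusted p = 4.17e-17).

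Among the enzymes the runner-up was RFP- MHCIIhi. Nos2 (ENSMUSG00000020826, chromosome 11, 78920787 to 78960254), the inducible nitric oxide synthase, read 332, 322, 339 and 330 CPM in RFP+ MHCIIhi against 73.7 to 90.9 CPM in RFP- MHCIIhi. RFP+ MHCIIlow read 33.5, 65.5, 66.9 and 70.5 CPM, with replicate 1 far below the others. Soat2, which esterifies cholesterol, held 38.0 to 41.3 CPM in RFP+ MHCIIhi and at most 9.87 CPM in any other library, and Pck1, an enzyme of gluconeogenesis, 42.4 to 56.7 CPM against at most 16.3.

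Fabp9, a fatty acid binding protein of the testis and a known Aire-dependent antigen, read 223, 244, 254 and 270 CPM in RFP+ MHCIIhi. It held 27.5 to 37.1 CPM in RFP- MHCIIhi and 50 to 83.2 CPM in RFP+ MHCIIlow, so the runner-up was the labelled MHCIIlow group. Anxa10, an annexin known from stomach epithelium, ran from 48.6 to 61.1 CPM in RFP+ MHCIIhi and reached at most 14.0 CPM elsewhere. Hoxc11 (ENSMUSG00000001656, chromosome 15, 102954427 to 102957708), a posterior homeobox gene, ran from 24.2 to 28.7 CPM against at most 5.57 CPM, and was 5.08-fold over RFP- MHCIIhi and 5.59-fold over RFP+ MHCIIlow. Smtnl1 ran from 129 to 143 CPM against at most 35.3, Ly6i from 37.5 to 50.7 against at most 11.2 and Ifi205 from 19.6 to 21.5 against at most 6.91.

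**Figure D2:**
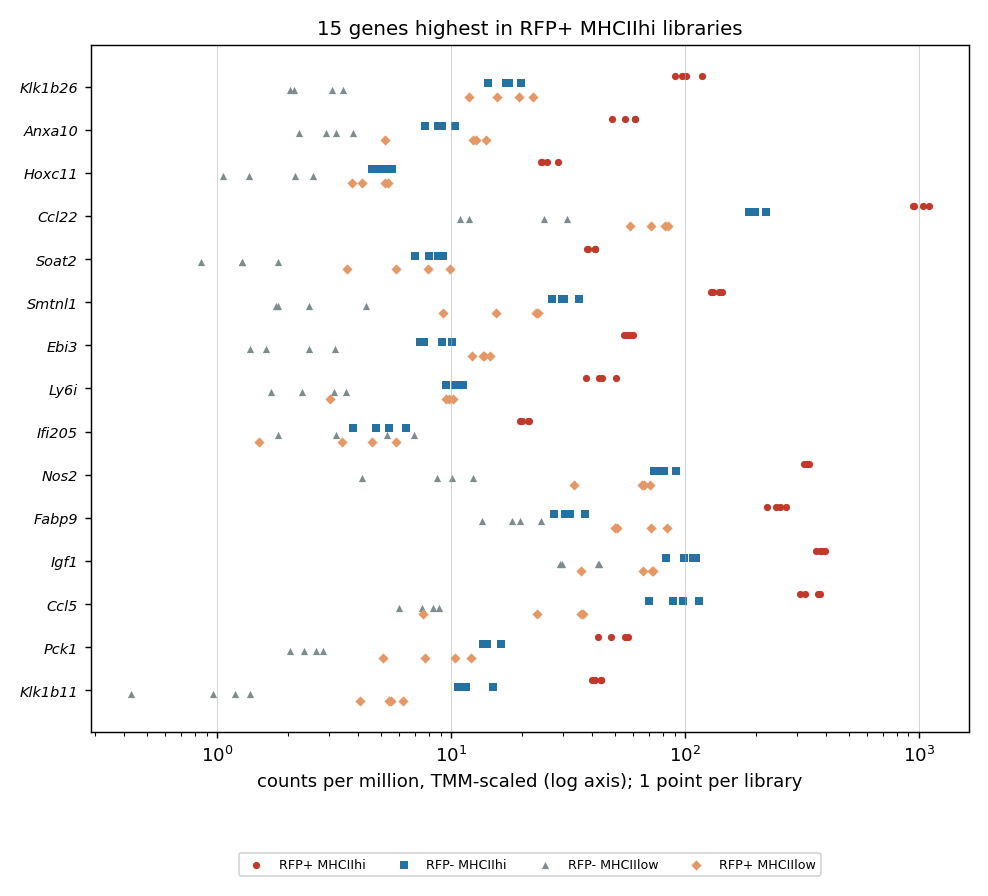
Levels of the 15 genes named as highest, in CPM on a log axis, with 1 point per library and 1 colour and shape per group. In each row the 4 RFP+ MHCIIhi points lie to the right of the other 12, and the runner-up is RFP- MHCIIhi for some genes (Ccl22, 187 to 222 CPM) and RFP+ MHCIIlow for others (Fabp9, 50 to 83.2 CPM).

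Promoter windows of 300 bases around the annotated start (RefSeq, GRCm38.p6) are shown for Ccl22 and for the 4 leading genes of the 15 that had one; Cd86, Hoxc11 and Soat2 had none in the table used. They are shown as examples of genes that peak in RFP+ MHCIIhi, in lower case with capitals for the letters TATAAA or for a kappa-B motif, the binding motif of NF-kappaB, searched on both strands.
Ccl22: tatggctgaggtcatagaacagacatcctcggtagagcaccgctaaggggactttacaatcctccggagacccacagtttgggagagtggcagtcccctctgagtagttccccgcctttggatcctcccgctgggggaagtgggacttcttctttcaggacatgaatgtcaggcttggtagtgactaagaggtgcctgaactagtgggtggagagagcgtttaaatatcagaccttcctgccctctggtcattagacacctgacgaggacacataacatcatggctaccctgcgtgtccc
Klk1b26: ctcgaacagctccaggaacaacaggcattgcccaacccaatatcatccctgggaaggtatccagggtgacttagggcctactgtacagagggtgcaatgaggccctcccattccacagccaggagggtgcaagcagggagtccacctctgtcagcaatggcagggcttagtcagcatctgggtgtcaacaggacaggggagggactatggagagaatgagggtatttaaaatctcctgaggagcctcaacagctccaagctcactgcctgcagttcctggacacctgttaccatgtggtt
Anxa10: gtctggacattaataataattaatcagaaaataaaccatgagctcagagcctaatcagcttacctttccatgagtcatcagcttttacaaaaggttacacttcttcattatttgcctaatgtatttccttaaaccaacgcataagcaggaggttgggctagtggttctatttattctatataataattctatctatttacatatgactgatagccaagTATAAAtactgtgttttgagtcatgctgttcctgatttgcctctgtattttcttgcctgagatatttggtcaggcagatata
Smtnl1: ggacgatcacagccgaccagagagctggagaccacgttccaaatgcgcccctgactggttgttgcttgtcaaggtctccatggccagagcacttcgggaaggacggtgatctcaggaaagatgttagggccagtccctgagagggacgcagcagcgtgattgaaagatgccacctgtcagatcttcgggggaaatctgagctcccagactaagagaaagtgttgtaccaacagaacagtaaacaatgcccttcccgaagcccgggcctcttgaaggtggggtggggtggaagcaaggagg
Ebi3: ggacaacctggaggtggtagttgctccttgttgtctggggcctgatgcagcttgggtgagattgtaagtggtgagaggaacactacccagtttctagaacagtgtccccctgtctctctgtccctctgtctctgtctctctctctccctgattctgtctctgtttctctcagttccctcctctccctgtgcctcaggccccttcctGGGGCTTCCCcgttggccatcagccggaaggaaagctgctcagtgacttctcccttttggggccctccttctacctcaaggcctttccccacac
The windows lie at chr8:94745434-94745733 (Ccl22, plus strand), chr7:44012428-44012727 (Klk1b26, plus), chr8:62123144-62123443 (Anxa10, minus), chr2:84822603-84822902 (Smtnl1, minus) and chr17:55952373-55952672 (Ebi3, plus). TATAAA begins 32 bases before the Anxa10 start, and a kappa-B motif begins 44 bases before the Ebi3 start; neither letter string was found in the other 3 windows.

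Over all genes with a window, TATAAA occurred in 10.5% of the 849 highest genes that had one, in 3.11% of 578 lowest genes and in 6.20% of 14004 tested genes. Genes that were higher but not highest carried it in 9.96% of 3594 windows, so this share was not particular to genes that peak in RFP+ MHCIIhi. A kappa-B motif was present in 8.01% of highest, 5.84% of higher but not highest, 4.84% of lowest and 5.16% of all tested windows. The median ratio of observed to expected CpG was 0.495 in highest genes, 0.469 in genes higher but not highest, 0.795 in lowest genes and 0.691 over all. A match is a run of letters and was not linked to binding.

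Some signals to T cells peaked in RFP+ MHCIIhi. Of 16 co-stimulatory and checkpoint ligands, 12 were higher than the mean, 1 was lower and 6 were highest. Over all tested genes, 30.5% were higher and 5.79% highest. The median log2 difference of the list was 0.88, beside 0.007 for all tested genes. The summed level of the list was nevertheless lower in RFP+ MHCIIhi (1384 to 1704 CPM) than in RFP- MHCIIhi (1887 to 2503 CPM). Besides Cd80 and Cd86, those called highest were Cd70, Tnfsf9, Cd274 and Pdcd1lg2. Cd70, the ligand of CD27, read 44.2, 42.5, 47.2 and 64.9 CPM in RFP+ MHCIIhi and at most 25.5 CPM elsewhere (2.31-fold over RFP- MHCIIhi). Tnfsf9, the ligand of 4-1BB, read 32.6 to 41.2 CPM and at most 23.9 elsewhere. The checkpoint ligand gene Cd274 (PD-L1) moved less, from 168 to 180 CPM in RFP- MHCIIhi to 242 to 273 CPM, and the adjacent Pdcd1lg2 (PD-L2) rose from 18.3 to 20.5 CPM to 32.3 to 35.5 CPM. Of 27 chemokine ligands, 23 were higher and 8 highest (median 1.43).

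Cytokine genes were taken as a family after their values were seen. Of 60 tested ligands, 44 were higher than the mean and 13 highest (median log2 difference 1.41). Another 6 were lower, of which 1, Ctf1, was lowest, and 10 were not called. Over all tested genes, 30.5% were higher, 24.8% lower and 5.79% highest. Il12a, a subunit of IL-12 and IL-35, read 81.7, 93.4, 102 and 121 CPM in RFP+ MHCIIhi, 32.1 to 39.1 in RFP- MHCIIhi and at most 7.43 in either MHCIIlow group. Il27, whose product pairs with that of Ebi3, read 14.5 to 20.9 CPM against 4.68 to 7.91 in RFP- MHCIIhi. Genes for both parts of IL-27 and both parts of IL-35 were therefore called highest.

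Tnf and Lta, neighbours on chromosome 17 that encode tumour necrosis factor and lymphotoxin alpha, behaved alike. Tnf stood at 41.8 to 53.3 CPM in RFP+ MHCIIhi and 11 to 17.5 in RFP- MHCIIhi, and Lta at 19.0 to 26.3 against 7.70 to 9.36. Il13, a type 2 cytokine, was high in both MHCIIhi groups, with 195, 173, 183 and 209 CPM in RFP+ MHCIIhi and 104 to 112 CPM in RFP- MHCIIhi. In the MHCIIlow groups it reached at most 15.2 CPM. Csf2, encoding GM-CSF, was read at 8.12 to 13.7 CPM in RFP+ MHCIIhi and at most 4.91 CPM elsewhere.

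Lif and its receptor gene Lifr lay at opposite extremes in RFP+ MHCIIhi. Not every ligand gene went with Lif, as Ctf1 was called lowest. Lif was highest in RFP+ MHCIIhi, at 19.6, 20.8, 21.1 and 19.9 CPM against at most 11.8 CPM elsewhere. Its receptor gene Lifr (ENSMUSG00000054263, chromosome 15, 7090614 to 7197489) led the lowest genes with at least 20 CPM in every other group, with 52.1, 55.7, 49.6 and 56.8 CPM. Lifr stood at 122 to 204 CPM in RFP- MHCIIhi, 120 to 164 in RFP+ MHCIIlow and 734 to 876 in RFP- MHCIIlow, a log2 difference from the mean of -2.26 ± 0.12 (SE; edgeR adjusted p = 2.27e-13). Il6st, the shared signalling chain gp130, was also called lowest, at 61.0 to 74.3 CPM against 74.1 to 97.7 in RFP- MHCIIhi, where the ranges overlap, and this call was lost without RFP- MHCIIhi replicate 1 or 4. In the whole set of 54 receptor genes taken by symbol, 30 were higher and 11 lower than the mean, with 10 highest and 6 lowest (median 0.48). The set covers interleukin, TGF-beta, interferon and colony-stimulating factor receptors and genes with like symbols. Csf2rb and Csf2rb2 were among the highest. Shares over all tested genes were 30.5% higher, 24.8% lower, 5.79% highest and 3.75% lowest. Tgfbr1, a TGF-beta receptor, was among the lowest at 22.6 to 28.4 CPM against at least 33.5 CPM in every other library.

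The NF-kappaB pathway, which RANK and CD40 engage in mTECs, had 17 of 22 genes higher, none lower and 6 highest (median 0.48). Shares over all tested genes were 30.5% higher, 24.8% lower and 5.79% highest. Against RFP- MHCIIhi alone the list median was 0.16, and the list sums overlapped (2771 to 2917 against 2540 to 2917 CPM). Rel, a transcription factor subunit, read 102, 107, 103 and 95.6 CPM in RFP+ MHCIIhi, 58.1 to 63.3 in RFP- MHCIIhi and 42.4 to 49.7 in RFP+ MHCIIlow. Nfkbia, an inhibitor that NF-kappaB itself induces, read 337 to 427 CPM against at most 295. Traf1, an adaptor, read 96.8 to 129 CPM against at most 60.7. The receptor gene Tnfrsf11a (RANK) was higher than the mean by 0.51 ± 0.09 (log2, SE; edgeR adjusted p = 2.7e-05) but overlapped with RFP- MHCIIhi (190 to 232 against 192 to 213 CPM).

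Myeloid genes moved in parallel with these signals. Of 11 tested macrophage and monocyte markers, 10 were higher than the mean and 3 highest, beside 30.5% and 5.79% of all tested genes. Their summed level was 800 to 822 CPM in RFP+ MHCIIhi, 545 to 620 in RFP- MHCIIhi, 110 to 157 in RFP- MHCIIlow and 225 to 342 in RFP+ MHCIIlow. Lyz2, encoding lysozyme, made up most of it at 511 to 536 CPM, and Mrc1, a mannose receptor, stood at 80.1 to 85.0 CPM against at most 50.7. Adgre1, which encodes F4/80, was lower in RFP+ MHCIIhi (7.41 CPM) than in RFP- MHCIIhi (13.99 CPM).

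Dendritic cell markers summed to 447 to 488 CPM in RFP+ MHCIIhi, 484 to 545 in RFP- MHCIIhi, 95.9 to 127 in RFP- MHCIIlow and 80 to 148 in RFP+ MHCIIlow. Of the 12, 8 were higher than the mean and 2 highest, beside 30.5% and 5.79% of all tested genes. The list median against RFP- MHCIIhi was -0.1. Ccr7, a homing receptor, read 75.2 to 95.8 CPM in RFP+ MHCIIhi against at most 36.9 CPM. The transcription factor gene Batf3 read 7.19 to 7.87 CPM against at most 3.76. Irf8, which was listed with the mature mTEC regulators and not with these markers, read 206 to 225 CPM against at most 160. The defining marker Itgax (CD11c) was near 0, at 1.46 to 1.87 CPM in RFP+ MHCIIhi and 1.74 to 2.92 in RFP- MHCIIhi. Flt3 overlapped between the MHCIIhi groups (4.96 to 6.46 and 4.91 to 7.05 CPM). The part of such cells in the chemokine, cytokine and co-stimulatory genes was not tested.

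Summed thymocyte and cortical epithelial markers were below those of RFP- MHCIIhi. Thymocyte markers summed to 109 to 179 CPM in RFP+ MHCIIhi, 438 to 927 in RFP- MHCIIhi, 43.8 to 66.0 in RFP- MHCIIlow and 56.3 to 141 in RFP+ MHCIIlow. Markers of cortical thymic epithelium summed to 1531 to 1971, 3744 to 5903, 1025 to 1337 and 453 to 608 CPM in the same order. Psmb11, a cortical proteasome subunit, read 15.8, 19.0, 15.8 and 39.8 CPM in RFP+ MHCIIhi and 147 to 272 in RFP- MHCIIhi. These lists move with the difference between the MHCIIhi groups, and their part in it was not tested.

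Tissue antigens divided between genes that peaked in RFP+ MHCIIhi and genes that were shared with, or higher in, RFP- MHCIIhi. All 7 tested antigens known to depend on Aire were higher than the mean (median 2.88), and 3 of them, Fabp9, Ins2 and Mucl2, were highest. Among all tested genes, 30.5% were higher and 5.79% highest. Ins2, encoding insulin, read 13.4, 11.8, 12.7 and 14.3 CPM in RFP+ MHCIIhi, 4.73 to 7.67 in RFP- MHCIIhi and 1.41 to 2.39 in RFP+ MHCIIlow. The salivary mucin gene Mucl2 read 31.1 to 36.6 CPM against 17.9 to 28.2 in RFP- MHCIIhi. Csn2, encoding beta-casein, read 837 to 1040 CPM and overlapped with RFP- MHCIIhi (670 to 864), so it was higher than the mean but not called highest.

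Among genes with at least 20 CPM in RFP+ MHCIIhi, the 5 with the largest difference from the mean that were higher but not highest were Ly6g, Fgg, Cytl1, Gal and Csn1s2a. Ly6g, known from neutrophils, read 20.8 to 29.5 CPM in RFP+ MHCIIhi and 20.6 to 28.8 in RFP- MHCIIhi, and the neuropeptide gene Gal 31.1 to 39.3 and 33.0 to 38.9, with overlap in both. Fgg, a fibrinogen chain made by liver, was below RFP- MHCIIhi (19.2 to 28.5 against 30.5 to 37.1 CPM), as were Cytl1 (23 to 36.9 against 51.8 to 56.1 CPM) and the casein gene Csn1s2a (21.8 to 27.5 against 33.5 to 37.9 CPM). These 5 were at most 4.06 CPM in any MHCIIlow library. Over the lists, 14 of 19 liver, 11 of 12 milk and saliva, 11 of 12 pancreas, 5 of 6 germ cell, 6 of 9 eye and 6 of 11 brain antigens were higher. Against RFP- MHCIIhi alone, the medians of these lists were 0.34, -0.03, 0.29, -0.35, -0.58 and -0.30 in the same order. The numbers called highest were 2, 3, 3, 1, 0 and 1. Shares over all tested genes were 30.5% higher and 5.79% highest.

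Glandular kallikreins of the Klk1b family, serine proteases of the salivary gland, formed the densest cluster of highest genes. All 13 tested members were higher than the mean and 11 were highest (median log2 difference 2.37), beside 30.5% and 5.79% of all tested genes. The family was singled out after its values were seen. Klk1b26 (ENSMUSG00000053719, chromosome 7, 44012168 to 44016968) read 90.3, 101, 96.8 and 118 CPM in RFP+ MHCIIhi, 14.3 to 19.9 in RFP- MHCIIhi and 11.9 to 22.4 in RFP+ MHCIIlow. Klk1b11 read 39.9 to 43.6 CPM against at most 15.0. Klk1b16 read 175 to 229 CPM in RFP+ MHCIIhi, and its RFP+ MHCIIlow libraries (57.5 to 99.7) lay above those of RFP- MHCIIhi (12.1 to 22.3). The 13 genes are near-identical copies whose reads the counting could split, so single members are uncertain.

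The Klk1b block was 1 of several neighbourhoods. Of 1050 protein-coding genes called highest, 283 (27%) had an adjacent tested protein-coding gene also called highest, against 11.8% over all 16787. Among 707 lowest genes the share was 12.7%, against 8.17%. The longest run of adjacent highest genes held 6 Klk1b genes, from Klk1b8 to Klk1b27 (chromosome 7, 43950664 to 44056712), followed by 4 Ces2 carboxylesterase genes on chromosome 8 (104734003 to 104934672). Shorter runs of 3 included Hoxc12, Hoxc11 and Hoxc10, the fatty acid binding genes Fabp9, Fabp4 and Fabp12, the chitinase-like Chil3, Chil4 and Chil6, and Plgrkt, Cd274 and Pdcd1lg2. Ces2a, the first of its cluster, read 18 to 22.6 CPM in RFP+ MHCIIhi, 1.95 to 2.55 in RFP- MHCIIhi and 4.32 to 10.5 in RFP+ MHCIIlow.

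Within the Hox genes, also grouped after their values were seen, Hoxa differed in direction from the other clusters. Of 9 Hoxc genes 8 were higher and 4 highest (median 1.28), and of 8 Hoxa genes 5 were lower and 2 lowest (median -1.39). Of 8 Hoxb genes 4 were higher and none lower (median 0.75), and all 3 Hoxd genes were higher (median 1.41). Among all tested genes, 30.5% were higher, 24.8% lower, 5.79% highest and 3.75% lowest. Hoxc10 read 6.32 to 8.17 CPM in RFP+ MHCIIhi, 0.789 to 2.00 in RFP- MHCIIhi and 2.18 to 5.80 in RFP+ MHCIIlow, and was not called highest without RFP+ MHCIIhi replicate 2 or RFP+ MHCIIlow replicate 3. Hoxa3, which acts in thymus development, was at 0.329 to 0.933 CPM in RFP+ MHCIIhi, 1.74 to 3.53 in RFP+ MHCIIlow and 9.46 to 16.3 in RFP- MHCIIlow.

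Antigen processing genes included some that peaked in RFP+ MHCIIhi. Of 21 antigen processing genes, 14 were higher, 1 was lower and 6 were highest (median 0.38). Shares over all tested genes were 30.5%, 24.8% and 5.79%. Against RFP- MHCIIhi alone the list median was 0.34. H2-K1, a class I heavy chain, read 3933, 3814, 3866 and 4416 CPM in RFP+ MHCIIhi, 2138 to 2300 in RFP- MHCIIhi and at most 2892 in RFP+ MHCIIlow. The light chain gene B2m read 8996 to 11100 CPM against at most 6531. Unlike MHC class II, these genes were not used for the sort. Class I, Ly6, serum amyloid and Ces2 genes also have close copies among which the counting could split reads.

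**Figure D3:**
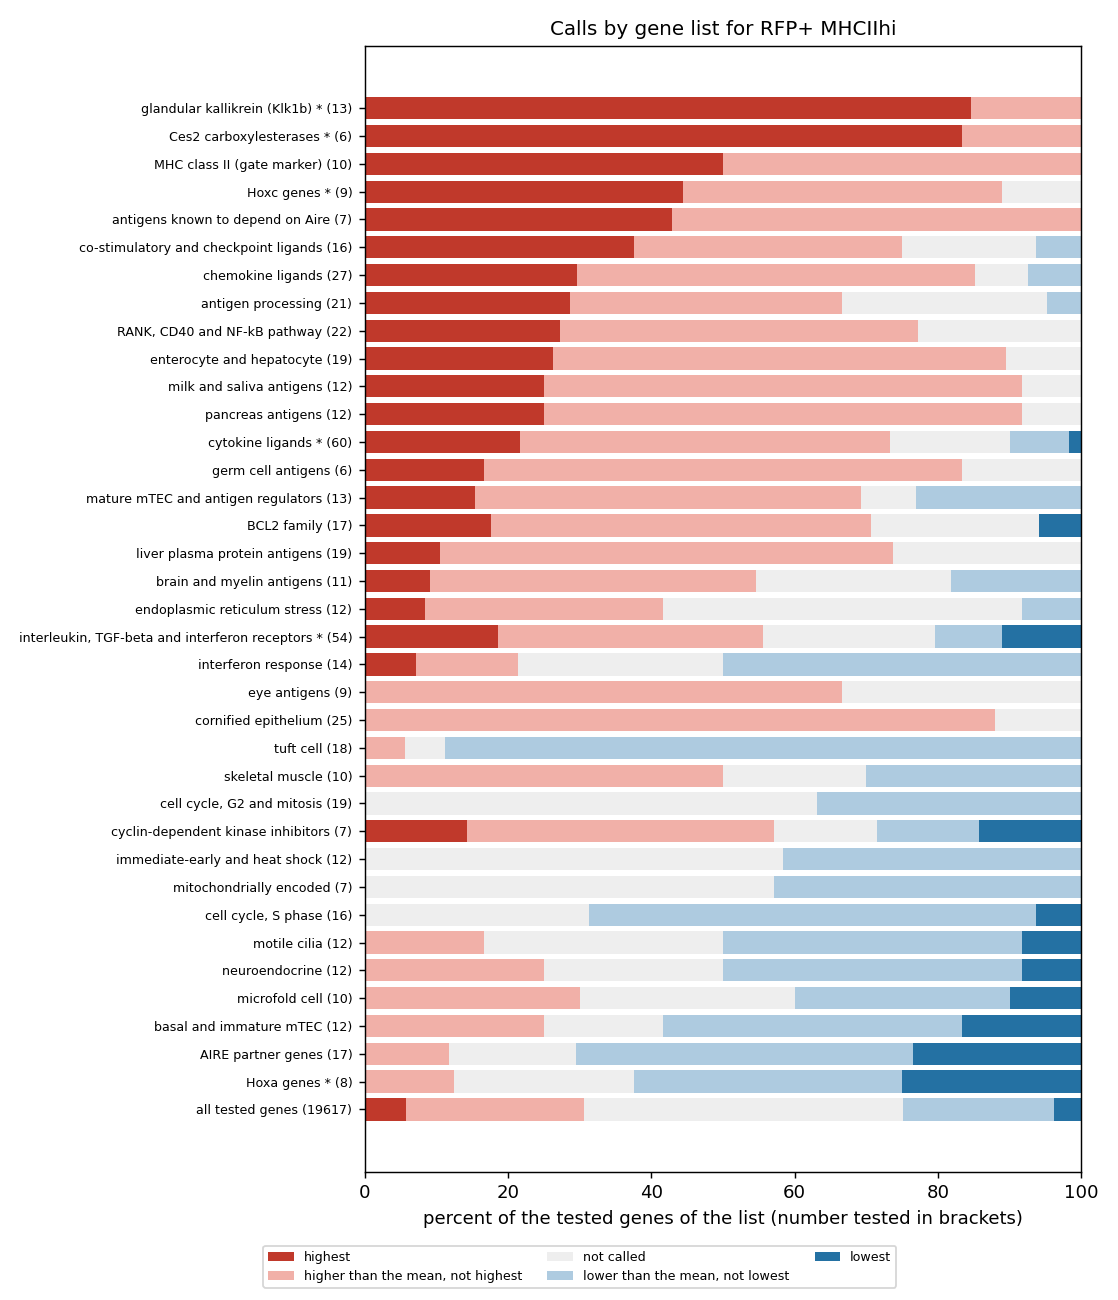
Shares of tested genes by call for each gene list, as stacked bars from 0 to 100% with the number tested in brackets; an asterisk marks families grouped after their values were seen, and the bottom bar shows all 19617 tested genes. The top bar holds mostly genes called highest (11 of 13 Klk1b genes), while cornified epithelium is mostly higher without a single highest gene and AIRE partner genes are mostly lower.

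Genes lowest in RFP+ MHCIIhi included receptors, enzymes and a transcription factor. The 11 described here were Lifr, Igdcc4, S1pr3, Nfib, Nin, Gfra2, Wfikkn2, Man2a2, Bcl7a, Dcakd and Man2a1. In all 11 the group with the highest mean was RFP- MHCIIlow or, for Dcakd, a near tie among the 3 others, and each difference from RFP- MHCIIhi was between -1.58 and -0.90 on the log2 scale.

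S1pr3, a receptor for sphingosine 1-phosphate, read 15.0, 14.5, 12.9 and 15.8 CPM in RFP+ MHCIIhi, 37.9 to 51.5 in RFP- MHCIIhi, 28.4 to 38.2 in RFP+ MHCIIlow and 138 to 158 in RFP- MHCIIlow. Gfra2, a co-receptor for neurturin, read 16.9 to 18.9 CPM, against 31.7 to 37.0 in RFP- MHCIIhi and 47.9 to 65.5 in RFP+ MHCIIlow. Igdcc4, an immunoglobulin-domain receptor, read 13.6 to 17.0 CPM and at least 26.9 CPM in every other library. The RFP+ MHCIIhi values of these receptors were 0.333, 0.501 and 0.417 times those of RFP- MHCIIhi.

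Nfib, a transcription factor (chromosome 4, 82290173 to 82705750), read 20.5, 25.0, 23.8 and 20.7 CPM in RFP+ MHCIIhi, 42.1 to 57.1 in RFP- MHCIIhi, 48.1 to 50.6 in RFP+ MHCIIlow and 169 to 187 in RFP- MHCIIlow. The 2 alpha-mannosidases Man2a1 and Man2a2, which trim N-glycans in the Golgi, were both lowest, at 47.9 to 55.1 and 15.7 to 19.0 CPM against at least 81.3 and 30.9 CPM. Nin, a centrosome protein, read 20.5 to 25.5 CPM against at least 40.7. Wfikkn2, a secreted binder of TGF-beta family ligands, read 12.3 to 15.4 CPM against at least 21.2, and the chromatin subunit Bcl7a 12.2 to 15.3 CPM against at least 22.5. Dcakd stood apart from the other 10, with 10.8 to 15.7 CPM in RFP+ MHCIIhi and between 23.4 and 30.7 CPM in every other library.

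**Figure D4:**
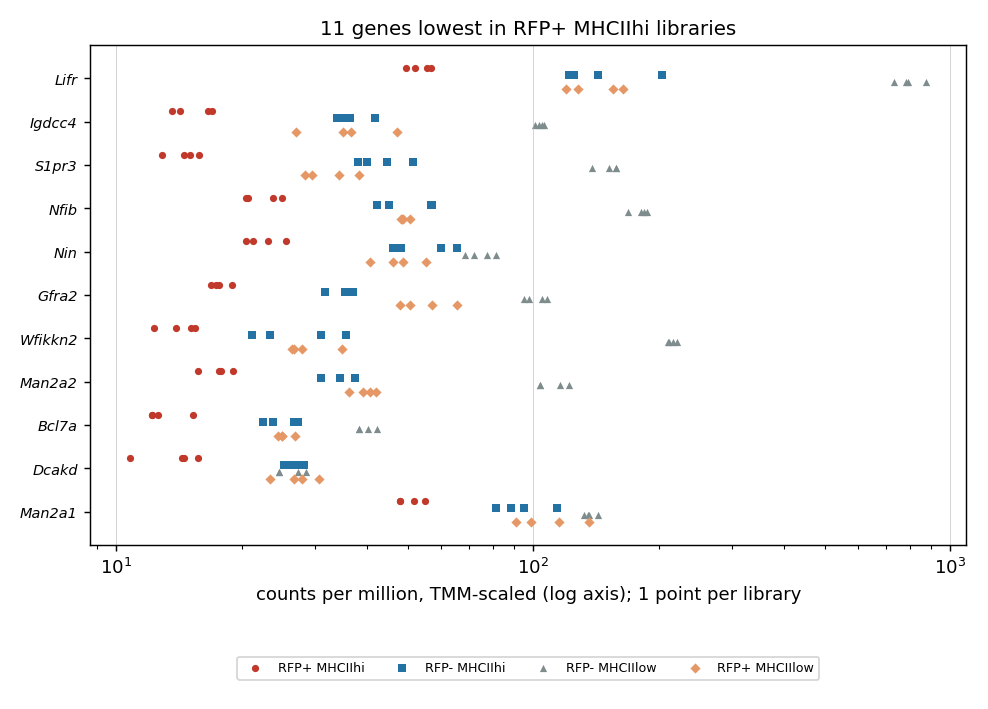
Levels of 11 genes called lowest, in CPM on a log axis, with 1 point per library. In each row the 4 RFP+ MHCIIhi points lie to the left of the other 12, and RFP- MHCIIlow lies furthest right for most genes (Lifr, 734 to 876 CPM).

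Other lists held lowest genes beside these. Of 12 basal and immature mTEC markers, 7 were lower, 3 higher and 2 lowest (median -0.35). Shares over all tested genes were 24.8% lower, 30.5% higher and 3.75% lowest. Itgb4, the integrin chain that anchors basal epithelium, was lowest at 81.4, 77.8, 73.1 and 74.0 CPM, against 127 to 146 in RFP- MHCIIhi and 132 to 144 in RFP+ MHCIIlow. Krt5 was lower than the mean (-0.87 ± 0.09 SE, log2; edgeR adjusted p = 1.83e-08) but stood above RFP- MHCIIhi, at 252 to 312 against 170 to 230 CPM. Of 17 genes for known partners of the AIRE protein, 12 were lower, 2 higher and 4 lowest (median -0.31). Against RFP- MHCIIhi alone the median of these partner genes was -0.08, while their summed level was lower (1293 to 1437 against 1773 to 1945 CPM). Xrcc5, encoding the Ku80 subunit of the DNA repair kinase, read 11, 11.8, 11.5 and 12.4 CPM in RFP+ MHCIIhi, 24.8 to 28.5 in RFP- MHCIIhi, 16.8 to 18.7 in RFP+ MHCIIlow and 46.6 to 54.8 in RFP- MHCIIlow.

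In the BCL2 family, which governs cell death, 12 of 17 genes were higher, 1 was lower and 3 were highest (median 0.46). Shares over all tested genes were 30.5%, 24.8% and 5.79%. Bcl2l1, encoding the survival factor BCL-XL, read 94.1, 90.5, 97.6 and 96.3 CPM in RFP+ MHCIIhi and at most 61.2 elsewhere. Bcl2 itself was the 1 lower gene, at 25.4 to 27.4 CPM against at least 29.4 CPM. Its call as lowest was lost without RFP+ MHCIIlow replicate 1, without RFP+ MHCIIhi replicate 1, without RFP+ MHCIIlow replicates 1 and 4 together, and without the filter on low counts; it stayed lower than the mean.

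Several programmes placed RFP+ MHCIIhi between RFP- MHCIIhi and RFP+ MHCIIlow instead of at an extreme. Mki67, a proliferation marker, was below RFP- MHCIIhi and above RFP+ MHCIIlow: it read 86.8, 87.7, 88.1 and 89.4 CPM, against 459 to 498 and 10.5 to 43.6, and overlapped with RFP- MHCIIlow (72.4 to 160). Its difference from the mean was not called (-0.43 ± 0.20 SE, log2; edgeR adjusted p = 0.0791), and without RFP+ MHCIIlow replicate 1 it was (-0.51, edgeR adjusted p = 0.00495). It was also called without RFP- MHCIIlow replicate 1 (-0.48, edgeR adjusted p = 0.0318). Of 19 genes of G2 and mitosis, none was higher and 7 were lower than the mean, beside 30.5% and 24.8% of all tested genes. The list median was -2.42 against RFP- MHCIIhi and 1.36 against RFP+ MHCIIlow. Cdkn1a, an inhibitor of cyclin-dependent kinases, ran in the other order, at 298 to 344 CPM between 117 to 146 and 394 to 502, with 152 to 216 in RFP- MHCIIlow.

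Cornified epithelium and tuft cell lists showed the same placement. Of 25 cornified genes, 22 were higher than the mean and none highest, beside 30.5% and 5.79% of all tested genes. Their list median was 1.78 against RFP- MHCIIhi and -1.29 against RFP+ MHCIIlow. Krt10, a keratin of the upper epidermis, read 101 to 152 CPM in RFP+ MHCIIhi, at most 12 in RFP- MHCIIhi, 210 to 414 in RFP+ MHCIIlow and 20.3 to 37.2 in RFP- MHCIIlow. Of 18 tuft cell genes, 1 was higher and 16 were lower than the mean, beside 30.5% and 24.8% of all tested genes. None was highest or lowest. Dclk1, a tuft cell kinase, read 86.8 to 113 CPM in RFP+ MHCIIhi, 32.2 to 39.3 in RFP- MHCIIhi, 615 to 1086 in RFP+ MHCIIlow and 376 to 599 in RFP- MHCIIlow. Pou2f3, the tuft cell master regulator, read 64.2 to 82.7, 13.1 to 16.6 and 175 to 262 CPM in the same order, and the microfold cell gene Gp2 266 to 321, 63.7 to 91.8 and 959 to 1057 CPM. In RFP- MHCIIlow, Pou2f3 read 71 to 102 CPM, overlapping with RFP+ MHCIIhi, and Gp2 596 to 631 CPM. The tuft cytokine gene Il25 was low throughout, at 0.988 to 1.97 CPM, 0.258 to 0.844 CPM and 8.54 to 13 CPM, with at most 6.8 CPM in RFP- MHCIIlow. Tff3, a goblet cell peptide, read 49.7 to 54.6 CPM and overlapped with RFP+ MHCIIlow (41.0 to 84.2 CPM), above RFP- MHCIIhi (21.6 to 27.1 CPM) and RFP- MHCIIlow (1.61 to 6.71 CPM).

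Enterocyte and hepatocyte genes were mostly shared with RFP+ MHCIIlow. Of 19, 17 were higher than the mean and 5 highest (median 1.15), beside 30.5% and 5.79% of all tested genes. However, the median against RFP+ MHCIIlow was -0.01 and the sums overlapped (4653 to 5046 against 3665 to 5116 CPM). Saa3, a serum amyloid A, read 617, 605, 694 and 749 CPM in RFP+ MHCIIhi, 345 to 389 in RFP+ MHCIIlow, 70.5 to 84.4 in RFP- MHCIIhi and 17.3 to 26.5 in RFP- MHCIIlow. It was 8.54-fold over RFP- MHCIIhi and 1.81-fold over RFP+ MHCIIlow (edgeR adjusted p = 9.72e-08 for the latter).

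The remaining lists are given by their counts. Over all tested genes, 30.5% were higher, 24.8% lower, 5.79% highest and 3.75% lowest. Of 13 regulators and markers of mature mTECs, 9 were higher, 3 lower and 2 highest, and of 7 inhibitors of cyclin-dependent kinases 4 were higher, 2 lower, 1 highest and 1 lowest. Of 16 S phase genes 11 were lower and none higher, of 14 interferon response genes 7 were lower and 3 higher, and of 12 immediate-early and heat shock genes 5 were lower and none higher. Genes of endoplasmic reticulum stress had 5 of 12 higher and 1 lower, skeletal muscle 5 of 10 higher and 3 lower, microfold cells 3 of 10 higher and 4 lower, motile cilia 2 of 12 higher and 6 lower, neuroendocrine cells 3 of 12 higher and 6 lower, and the mitochondrial genome 3 of 7 lower. Among markers of other cells, 6 of 8 B cell, 3 of 4 red cell, 1 of 10 mesenchyme and 1 of 9 endothelial genes were higher, and 1, 0, 7 and 3 were lower.

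The breadth of expression was compared at the depth of the smallest library, 7.93 M counts. The expected number of genes with at least 1 read was 25929 ± 126 in RFP+ MHCIIhi (SD, n = 4), 26620 ± 411 in RFP- MHCIIhi, 24045 ± 467 in RFP- MHCIIlow and 24694 ± 1609 in RFP+ MHCIIlow. The difference was -690 genes from RFP- MHCIIhi and 1884 from RFP- MHCIIlow, without overlap (exact two-sided permutation p = 0.0286 for each, the smallest that 4 against 4 libraries allow, adjusted p = 0.0429 over the 3 comparisons). The excess of 1235 genes over RFP+ MHCIIlow was within that group's spread (exact permutation p = 0.286). At a minimum of 5 reads it was 865 genes without overlap (exact permutation p = 0.0286). At that minimum the counts were 19070 ± 67 in RFP+ MHCIIhi, 19412 ± 235 in RFP- MHCIIhi, 17232 ± 115 in RFP- MHCIIlow and 18205 ± 641 in RFP+ MHCIIlow.

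**Figure D5:**
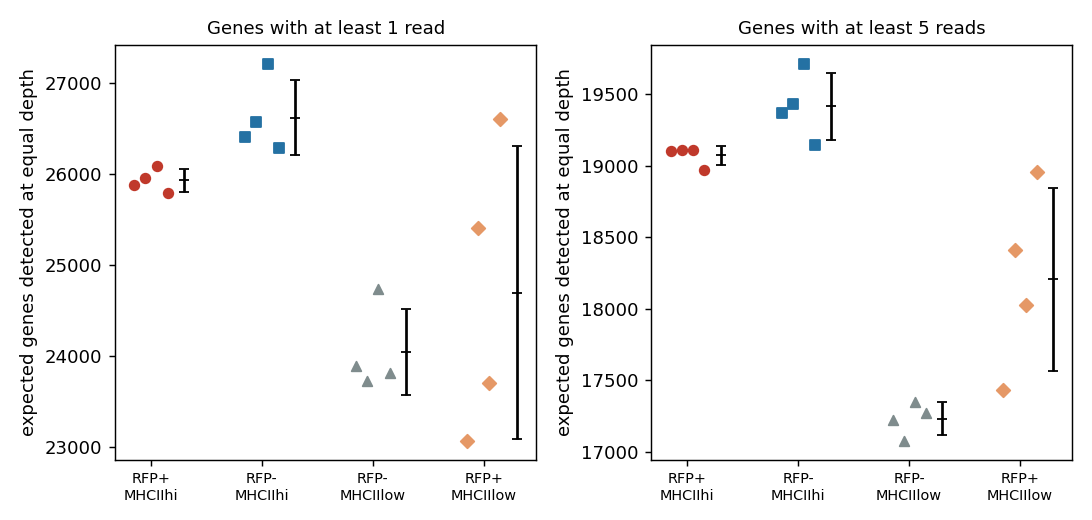
Expected number of genes detected at 7.93 M counts, with at least 1 read (left) and at least 5 reads (right), 1 point per library with the group mean and SD beside it; the vertical axes do not start at 0. RFP+ MHCIIhi libraries (25795 to 26091 genes at 1 read) lie just below RFP- MHCIIhi and above RFP- MHCIIlow.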

How the data were processed

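Poly(A) RNA from sorted thymic epithelial cells was amplified with an Ovation kit before Nextera XT library preparation (per the labels' protocols); no strand-marking step is named, so antisense and overlapping genes cannot be told apart. The authors deposited 1 table of raw counts per library, 43432 genes each; the submitters' processing notes list STAR, DESeq2 and GRCm38, and the counting step is not given in the sources used here. GENCODE M21 gave symbols and positions for 42548 of the gene IDs. The 884 IDs without a match held 0.098% of the reads.

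The counts were fitted with edgeR 4.0.16 (TMM scaling, quasi-likelihood test, 1 mean per group, all 16 libraries in R 4.3.3), for the 19617 genes that passed filterByExpr (minimum count 10, minimum total 15); the other 23815 were not tested. Benjamini-Hochberg adjustment ran over all tested genes with a threshold of 0.05. The contrast set RFP+ MHCIIhi against the mean of the log2 levels of the other 3 groups. A gene was called highest or lowest where that contrast and each of the 3 pairwise contrasts passed in 1 direction. CPM are TMM-scaled counts. Sums over marker lists use plain CPM. The SE of a log2 difference was its size divided by the square root of the F statistic. The procedure was tested on simulated data. Alternatives were DESeq2 1.42.0, limma-voom 3.58.1, upper-quartile factors, other filters, a replicate block, each library left out, and ribosomal RNA genes removed.

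The text names 22 preset genes. It names the 15 genes called highest with at least 20 CPM and no overlap with the other 12 libraries, by their smallest difference. By the same rule it takes 12 genes called lowest, with at least 20 CPM in every other group, of which 1 is not reported here, and, at 20 CPM or more in RFP+ MHCIIhi, the 5 largest that were higher but not highest. Predicted genes were passed over. The other 37 genes given with full values, and the families taken whole by symbol, were chosen after their values were seen. The contrast, the members and the 40 gene lists were chosen with earlier results of these data known. Totals ran from 7.93 to 19.46 M counts. Over the 24 within-group pairs, a chi-square statistic per degree of freedom of 3.18 to 36.78 found no library deposited more than once.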

Additional observations from a re-analysis of the deposited data

Results flagged for a closer look

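In 22 of 356 groups of 4 libraries, 1 library lay apart from the other 3, with a gap above the 95% critical value of Dixon's test as a share of the group's range. Chance flags about 1 in 20 such groups, or 17.8 here. RFP+ MHCIIlow replicate 1 was the low library for 6 genes that RFP+ MHCIIhi expressed most: Nos2 at 33.5 CPM (others 65.5 to 70.5), Ly6i at 3.02 (9.45 to 10.2), Il12a at 0.324 (6.22 to 7.43), Tnf at 4.65 (7.06 to 7.43), Nfkbia at 104 (171 to 183) and Irf8 at 24.4 (45.8 to 50.1). Each kept its call as highest without that library.

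Within RFP+ MHCIIhi, Krt5 stood at 312 CPM in replicate 1 (others 252 to 258) and Bcl7a at 15.3 in replicate 2 (12.2 to 12.6). In replicate 4, Csf2 stood at 13.7 (8.12 to 8.96) and Psmb11 at 39.8 (15.8 to 19). In RFP- MHCIIhi, Tnfsf9 stood at 23.9 in replicate 3, Cd274 at 180 in replicate 4 and Xrcc5 at 24.8 in replicate 2.

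In RFP- MHCIIlow, replicate 1 stood apart for Csf2 (0.106) and Ccr7 (7.33), replicate 3 for Traf1 (30.7), Klk1b16 (17.3) and genes detected (24738), and replicate 4 for Mucl2 (0.688) and Flt3 (0.774). In RFP+ MHCIIlow, Bcl2l1 stood at 35.4 in replicate 4 and Ptprc at 45.3 in replicate 3.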

How the results depend on the processing

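No named gene changed direction, and the 6 counts of genes stayed within 1.5 times of their values under every alternative. Leaving out 1 library gave 5525 to 6434 higher, 4190 to 5066 lower, 1001 to 1236 highest and 588 to 766 lowest genes. With the replicate block the counts were 6053 higher, 4967 lower, 1194 highest and 787 lowest. Deviations of same-numbered libraries correlated at -0.019 to 0.129, with 4 of 24 pairs over 0.1 (median 0.057), and differently numbered ones at -0.121 to 0.079, with 0 of 72 over 0.1 (median -0.017). Same-numbered pairs thus correlated slightly more, and these values do not settle whether the numbers pair libraries. The main fit and the permutation tests of genes detected took libraries as unpaired, and the latter were not run with a block. Calls as lowest depended most on the settings: without a filter on low counts 496 genes were lowest, among them 64.8% of the 735, and without RFP+ MHCIIlow replicates 1 and 4 together 695 were, among them 79.2%. With upper-quartile factors 1034 genes were highest and 836 lowest.

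The difference in genes detected from RFP+ MHCIIlow was 865 at a minimum of 5 reads, past the threshold, and 694 to 1870 with 1 library left out, past it at 1870, without RFP+ MHCIIlow replicate 4. With 1 library left out, the difference from RFP- MHCIIhi was -801 to -493 and that from RFP- MHCIIlow 1779 to 2115. Both missed the threshold whenever an RFP+ MHCIIhi library was left out (adjusted exact permutation p = 0.0857). Before adjustment, the exact permutation p was then 0.0571 against RFP- MHCIIhi and 0.0286 against RFP- MHCIIlow. The latter is the smallest value that this number of libraries allows. In each of these settings the RFP+ MHCIIhi range still lay below that of RFP- MHCIIhi and above that of RFP- MHCIIlow.

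Il13 was higher but not highest with DESeq2, Il6st was no longer lowest without RFP- MHCIIhi replicate 1 or 4, and Hoxc10 no longer highest without RFP+ MHCIIhi replicate 2 or RFP+ MHCIIlow replicate 3. Csn2 was called highest with limma-voom, without a filter and without RFP+ MHCIIlow replicate 1. Epcam lost its call without RFP+ MHCIIhi replicate 4 (0.15, edgeR adjusted p = 0.0617), where Psmb11 gained one (-0.79, edgeR adjusted p = 0.00473). Pou2f3 and Psmb11 also passed without a filter and with the replicate block. RFP+ MHCIIlow libraries came from the fewest cells, which limits comparisons of weakly expressed genes.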
